A study of Mus musculus with 6 samples.

Results

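The BCL2 family comprises the proteins that decide, at the outer membrane of the mitochondrion, whether a cell starts the intrinsic pathway of apoptosis. The 10 family genes described were chosen by name, not by their values: the anti-apoptotic guardians Bcl2, Bcl2l1 and Mcl1, the pore-forming effectors Bax and Bak1, and the BH3-only genes Bcl2l11, Bbc3, Pmaip1, Bid and Bad. Each name matched 1 row of the deposited table of 22487 genes, and all 10 passed the filter on low values (a mean of at least 0.5 FPKM, fragments scaled to transcript length and library size). The data are RNA sequencing of ovarian tissue from adult female rats in 2 groups, animals given cowshed PM2.5 exposure and controls labelled with no treatment, with 3 libraries in each group. Both groups carry the genotype label WT and the figure of 30 days in their titles, which do not say what the days count. The titles name the rat and all 22487 identifiers are rat Ensembl identifiers, while the organism field names the mouse. The labels give neither strain nor dose. They also do not say whether each library is a different rat, so the p-values reflect only how much these libraries vary, which may be technical.

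In mammalian cells the guardians bind BAX and BAK and keep them inactive, BAX and BAK form the pores that release cytochrome c, and the BH3-only proteins relay stress signals by occupying the guardians or by engaging the effectors directly. In the ovary, apoptosis removes granulosa cells of follicles that undergo atresia and luteal cells of regressing corpora lutea. Both processes depend on the balance within this family, and much of that balance is set on the proteins (cleavage of BID, phosphorylation of BAD, rapid turnover of MCL1), which RNA counts do not measure.

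Total counts were between 49554241 and 60749578 in the PM2.5 libraries and between 47662338 and 51530427 in the controls, and a member had between 228 and 9424 counts in a library. Follicle and oocyte markers were present in every library, with summed granulosa marker levels of 2277 to 7559 CPM (counts scaled to library size with TMM factors) in PM2.5 and 1278 to 5302 CPM in controls. Control 3 had the lowest granulosa sum, 1278 CPM, and the lowest sum of 8 oocyte markers, 34.4 CPM, against 67.7 to 227 CPM in the other 5 libraries. Most of the granulosa sum came from Inha, with 886 CPM in control 3 and 1724 to 6152 CPM in the other 5. Fshr, Amh and Inhba were also lowest in control 3. Foxl2, on the same list, was not, with 2009 counts in control 3 and 1794 in control 2. Control 2 had the highest score of 12 immediate early genes, 2.16 on the log2 scale, against -1.19 to -0.70 in PM2.5 and 0.35 and 0.52 in controls 1 and 3. In bulk tissue fewer cells of a type and less RNA per cell cannot be told apart.

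None of the 10 family genes passed edgeR's quasi-likelihood test once p-values were adjusted by Benjamini-Hochberg over the 15303 tested genes (threshold 0.05). Of all tested genes 142, or 0.928%, passed, and those that passed and were lower in PM2.5 made up 0.738% of the tested genes. That count was between 0 and 7 when any 1 of the 6 libraries was left out. Without the adjustment 3 members had an edgeR p below 0.05, Bcl2l1 higher and Bcl2l11 and Bbc3 lower in PM2.5, a share of 30.0% where 20.9% of all tested genes had one (9.17% higher and 11.7% lower). The groups did not overlap in 3 members, Bcl2l1, Bax and Bbc3, beside 27.2% of all tested genes. DESeq2 called 2 members, Bcl2l1 and Bcl2l11, where it called 11.5% of all tested genes after adjustment and 23.9% before. Of the 10 log2 fold changes 8 were negative, with a median of -0.37, while 49.6% of all tested genes had a negative one and their median was 0.00.

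**Figure D1:**
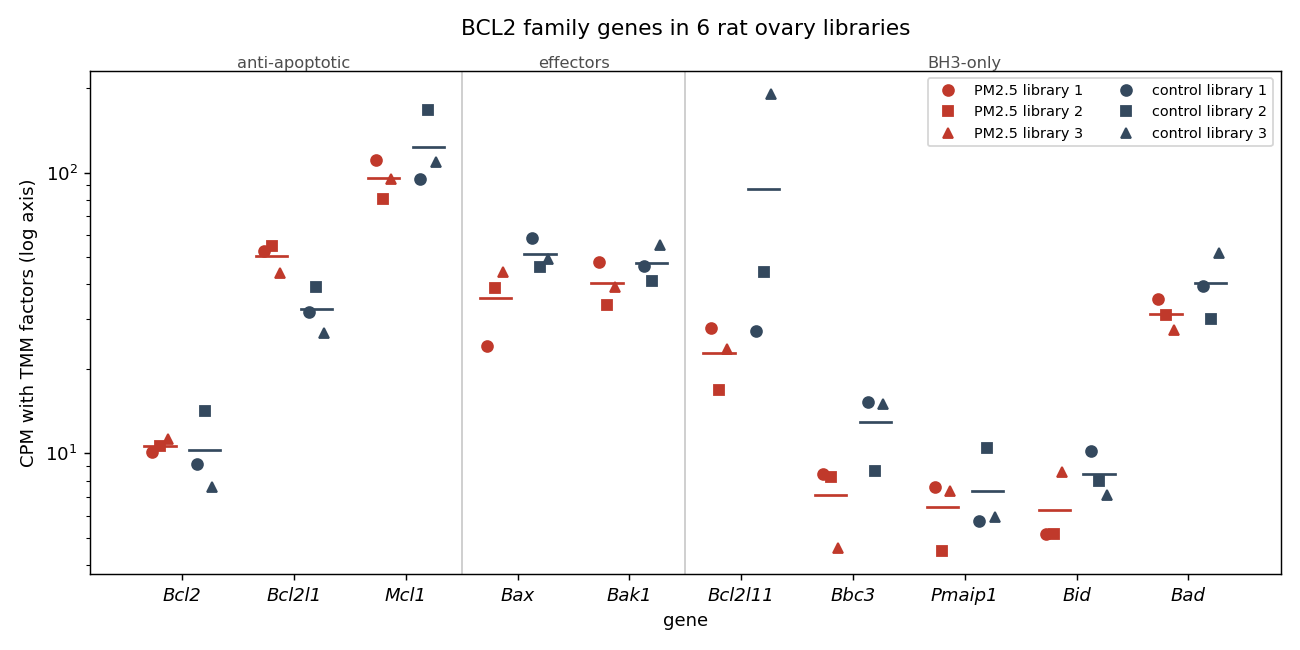
Level of each family gene in CPM (log axis) by library, PM2.5 left and control right of each gene name, with a bar at the group mean (n = 3 libraries each). Bcl2l1 is higher in all PM2.5 libraries than in any control, and Bcl2l11 in control 3, at 190 CPM, stands far above every other library.

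The 3 guardians had log2 fold changes of either sign. Bcl2l1 encodes BCL-XL, a guardian on which red cell precursors among others rely. Its level was 52.6, 54.6 and 44.0 CPM in PM2.5 libraries 1 to 3, against 31.9, 39.1 and 26.9 CPM in controls 1 to 3. Every PM2.5 library lay above every control, by at least 4.91 CPM. The means were 50.4 ± 5.64 and 32.6 ± 6.14 CPM in PM2.5 and control (SD, n = 3 each), and the log2 fold change was 0.63 ± 0.19 (SE), a 1.55-fold higher level with a 95% interval from 1.14-fold to 2.09-fold. With edgeR's quasi-likelihood test the unadjusted p was 0.0118 and the adjusted p 0.140, and with DESeq2 the adjusted p was 0.0389. The unadjusted p stayed below 0.05 in each of the 16 alternatives run, the 6 that leave out a library included, with log2 fold changes from 0.51 to 0.78. For 3 cell types, named here for that reason, the summed markers were likewise above all controls in each PM2.5 library. The granulosa, theca, luteal, oocyte, B cell, macrophage, neutrophil, endothelial and smooth muscle sums overlapped between the groups. The T and NK cell sum was lower in PM2.5 without overlap. Of all tested genes 27.2% had groups that did not overlap in either direction. The sum of 5 erythroid markers was 2564 to 4032 CPM in PM2.5 and 657 to 711 CPM in controls, and 3 of the 4 tested passed, though within PM2.5 it was highest in library 3, where Bcl2l1 was lowest. The sum of 4 adipocyte markers was 16.4 to 56.5 CPM in PM2.5 and 8.99 to 14.5 CPM in controls, and none of the 3 tested passed in edgeR. Pax8, the 1 oviduct marker measured, had 46.9, 84.3 and 25.6 CPM in PM2.5 libraries 1 to 3 and 6.88, 14.5 and 1.19 CPM in controls 1 to 3 (edgeR adjusted p = 0.148), and it ordered the 6 libraries as Bcl2l1 did. Of 13007 candidate genes (mean of at least 1 FPKM), 102 had a Pearson r above 0.95 with Bcl2l1, so many genes followed it closely. The part of these cell types in the Bcl2l1 difference was not tested. A further gene, LOC108350502, overlaps Bcl2l1 by 895 bases on the opposite strand, and its libraries did not stand in the same order. The strand setting of the counting is not given, and sharing of reads between these 2 genes was not tested.

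Mcl1, which encodes a guardian with a short-lived protein that cells resupply by transcription, had 111, 80.2 and 95.2 CPM in PM2.5 libraries 1 to 3 and 95.0, 167 and 109 CPM in controls 1 to 3. The groups overlapped, and control 2 was the highest library. Its log2 fold change was -0.37 ± 0.24 (edgeR adjusted p = 0.416), with an interval from 0.519-fold to 1.15-fold. Without control 2 it was -0.09, and control 2 was also the library with the highest immediate early score, 2.16; that score's part in the Mcl1 value was not tested.

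Bcl2, which encodes the founding guardian of the family, had 10.1, 10.6 and 11.3 CPM in PM2.5 libraries, against 9.14, 14.1 and 7.61 CPM in controls 1 to 3. The PM2.5 libraries lay inside the range of the controls. The log2 fold change was 0.05 ± 0.29 (edgeR adjusted p = 0.942), and the 95% interval reached from 0.641-fold to 1.67-fold. The log2 value was -0.02 without control 1, -0.12 without control 3 and 0.35 without control 2.

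Of the effectors, Bax encodes the protein that moves from the cytosol to mitochondria when activated. It had 24.1, 38.8 and 44.2 CPM in PM2.5 libraries 1 to 3 and 58.4, 46.1 and 49.3 CPM in controls 1 to 3. The groups did not overlap, though PM2.5 library 3 and control 2 lay 1.94 CPM apart. The log2 fold change was -0.52 ± 0.24 (edgeR unadjusted p = 0.0693, adjusted p = 0.276), and -0.30 without PM2.5 library 1, the lowest library. Bax shares 918 bases on the same strand with Ftl1, which encodes ferritin light chain. Ftl1 had 683, 729 and 815 CPM in PM2.5 libraries 1 to 3 and 1006, 829 and 1003 CPM in controls 1 to 3. The 6 libraries stood in the same order for Ftl1 as for Bax, so the Bax value is uncertain where the counting could share reads between the 2 genes; the part of Ftl1 in it was not tested.

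Bak1, whose protein resides on the mitochondrion at rest, had 48.0, 33.8 and 39.1 CPM in PM2.5 libraries, against 46.6, 41.1 and 55.2 CPM in controls. The groups overlapped. The log2 fold change was -0.24 ± 0.19 (edgeR adjusted p = 0.497), with an interval from 0.621-fold to 1.15-fold. Its whole span of 8785 bases is overlapped by Ggnbp1 on the opposite strand, and the libraries did not stand in the same order for both. Sharing of reads between Bak1 and Ggnbp1 was likewise not tested.

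All 5 BH3-only genes had negative log2 fold changes, none of which passed over all genes in edgeR. Bcl2l11 encodes BIM, a potent activator that FOXO factors induce when survival factors are withdrawn. It had 28.0, 16.8 and 23.6 CPM in PM2.5 libraries 1 to 3 and 27.3, 44.3 and 190 CPM in controls 1 to 3. PM2.5 library 1 lay above control 1, so the groups overlapped, and control 3 was 6.97 times control 1, a wider spread between controls than in 95.7% of tested genes. Its log2 fold change was -1.94 ± 0.71 (edgeR unadjusted p = 0.0292, adjusted p = 0.194; DESeq2 adjusted p = 0.0298). Without control 3 it was -0.64 (edgeR unadjusted p = 0.0777, adjusted p = 0.387). With limma on log2(FPKM + 1) it was -1.27 on that scale.

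Bmf, a BH3-only gene outside the 10 whose protein binds the guardians much as BIM does, showed the same library. It had 61.3, 17.8 and 12.5 CPM in PM2.5 libraries, against 46.2, 55.1 and 272 CPM in controls 1 to 3, with a log2 fold change of -2.03 ± 0.88 (edgeR adjusted p = 0.251). Control 3 exceeded every other library at least 4-fold in 22 of the 15303 tested genes, or 0.144%, and Bcl2l11 and Bmf were both among these. The same count was 13, 5 and 7 genes for PM2.5 libraries 1 to 3 and 1 and 24 genes for controls 1 and 2, so control 3 was not alone in this, and the limit was set after the values were seen. Control 3 was also the library with the lowest granulosa and oocyte sums and the highest level of Star, which brings cholesterol into mitochondria for steroid synthesis, at 7928 CPM, against 1314 to 4829 CPM in PM2.5 and 3009 and 4074 CPM in controls 1 and 2. The other 2 theca markers did not peak there, with Cyp17a1 at 51.0 CPM and Insl3 at 50.9 CPM in control 3, against 202 CPM for Cyp17a1 in control 2 and 55.0 CPM for Insl3 in control 1. The part of cell makeup in the 2 BH3-only genes was not tested.

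Bbc3 encodes PUMA, which p53 and FOXO3 induce. It had 8.43, 8.27 and 4.59 CPM in PM2.5 libraries, against 15.2, 8.63 and 15.0 CPM in controls 1 to 3. The groups did not overlap, but control 2 exceeded PM2.5 library 1 by 0.19 CPM. Its log2 fold change was -0.87 ± 0.36 (edgeR unadjusted p = 0.0470, adjusted p = 0.234; DESeq2 adjusted p = 0.149), and the unadjusted p was above 0.05 when any library other than control 2 was left out, with log2 fold changes from -1.09 to -0.63 over the 6 fits.

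Pmaip1 encodes NOXA, which pairs with MCL1. It had 7.59, 4.48 and 7.33 CPM in PM2.5 libraries, against 5.75, 10.4 and 5.94 CPM in controls 1 to 3. Control 2 was the highest library, as for Mcl1 and Bcl2. Its log2 fold change was -0.19 ± 0.37 (edgeR adjusted p = 0.803) and turned to 0.15 without control 2 and to 0.02 without PM2.5 library 2. Expressed as FPKM, the ratio of Mcl1 to Pmaip1 was 18.4, 22.6 and 16.4 in PM2.5 and 20.8, 20.1 and 23.1 in controls, with overlap.

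Bid, whose protein links death receptors to mitochondria after caspase-8 cleaves it, had 5.15, 5.16 and 8.62 CPM in PM2.5 libraries, against 10.2, 7.96 and 7.13 CPM in controls. PM2.5 library 3 lay within the controls, and the log2 fold change was -0.42 ± 0.33 (edgeR adjusted p = 0.495). Bad, whose protein survival kinases phosphorylate and hold inactive, had 35.4, 31.2 and 27.6 CPM in PM2.5 libraries, against 39.5, 30.1 and 51.8 CPM in controls 1 to 3. The groups overlapped through control 2, and the log2 fold change was -0.37 ± 0.23 (edgeR adjusted p = 0.391), -0.15 without control 3 and -0.54 without control 2. Bad shares 963 bases with Gpr137 on the opposite strand, and the 6 libraries stood in the same order for both genes. Gpr137 had 22.1, 19.5 and 17.5 CPM in PM2.5 and 35.2, 18.0 and 38.1 CPM in controls, and since the strand setting of the counting is not given, the 2 genes may not be separated.

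**Figure D2:**
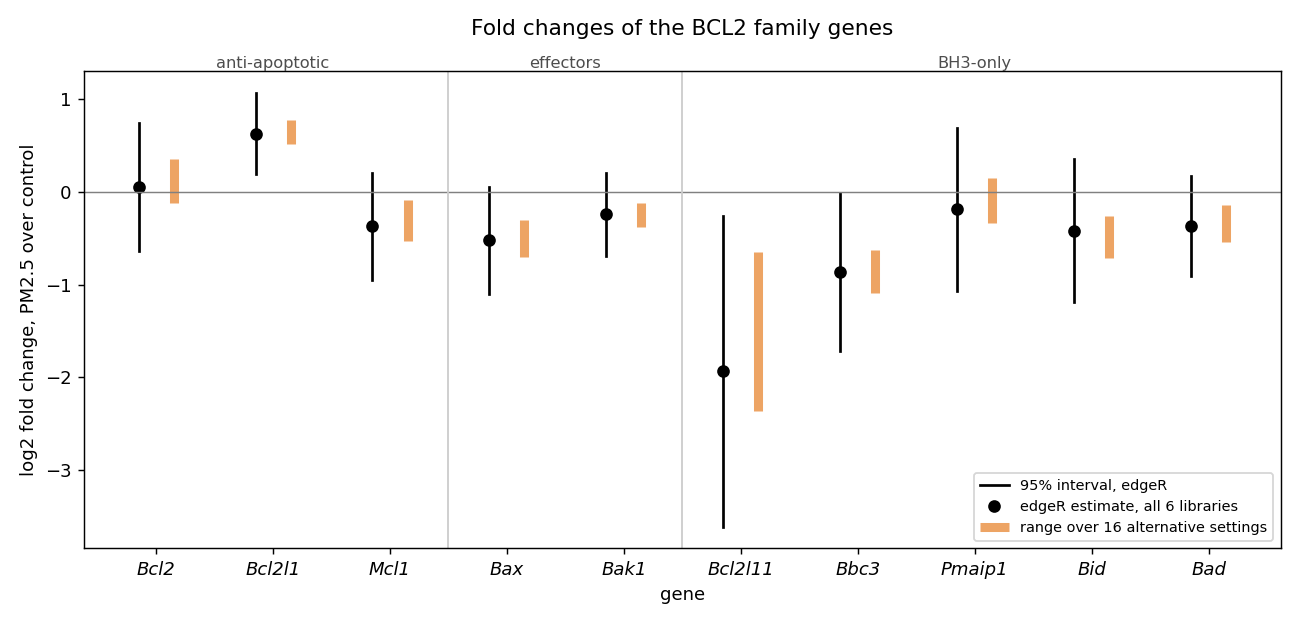
Log2 fold change of PM2.5 over control for each family gene: black points with lines are the edgeR estimates with 95% intervals (3 libraries in each group), orange bars the range over 16 alternative settings. The intervals of Bcl2l1, Bcl2l11 and Bbc3 exclude 0, and the bar of Bcl2l11 reaches from -2.37 to -0.64. The intervals are not adjusted for the number of genes, and none of these genes passes over all genes in edgeR. Of all tested genes 20.9% have an unadjusted edgeR p below 0.05.

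Levels were compared between genes as FPKM, which accounts for transcript length. Mcl1 was the most abundant member in every library, with 40.7 ± 6.56 FPKM in PM2.5 and 52.8 ± 18.1 FPKM in controls (SD, n = 3 each). Bax, with 16.1 ± 4.70 and 23.1 ± 2.81 FPKM in PM2.5 and control, and Bak1, with 17.4 ± 3.10 and 20.4 ± 2.26 FPKM, came next and overlapped each other. Over the 6 libraries the order of mean FPKM then ran Bad, Bcl2l11, Bcl2l1, Bbc3, Bid, Pmaip1 and Bcl2. Neighbours in this order did not overlap over the 6 libraries in 2 places, between Mcl1 and Bax and between Bak1 and Bad. Bcl2 was the lowest member in every library, at 1.20 ± 0.07 FPKM in PM2.5 and 1.16 ± 0.43 FPKM in controls, but its range met that of Pmaip1, 2.19 ± 0.59 and 2.51 ± 0.99 FPKM.

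The share of each guardian in the guardian sum was taken library by library. Mcl1 supplied 84.2%, 78.8% and 84.0% of the summed guardian FPKM in PM2.5 libraries 1 to 3 and 87.7%, 90.7% and 90.6% in controls 1 to 3. Bcl2l1 supplied 13.7%, 18.5% and 13.4% in PM2.5 and 10.1%, 7.32% and 7.70% in controls. The 2 shares did not overlap between the groups, whereas the share of Bcl2, from 2.01% to 2.75% in PM2.5 and 1.67% to 2.22% in controls, did. With so little Bcl2 in the sum, the Mcl1 and Bcl2l1 shares mirror each other and are not separate results. Bcl2l1 itself did not overlap between the groups, while Mcl1 and the guardian sum did. These shares, like the ratios that follow, describe the libraries, with no test, and were among 20 ratios, shares and sums computed with the members' values known.

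The ratio of Bax to Bcl2, often taken as a measure of how near a tissue is to apoptosis, was 9.65, 14.7 and 15.8 in PM2.5 and 25.8, 13.2 and 26.1 in controls, on FPKM. Control 2 lay among the PM2.5 libraries, so the groups overlapped. The log2 difference was -0.66, with SDs between libraries of 0.39 in PM2.5 and 0.57 in controls. Set against Bcl2l1 instead, Bax gave ratios of 1.41, 2.19 and 3.09 in PM2.5 and 5.64, 3.64 and 5.66 in controls, which did not overlap. The Bcl2l1 to Bcl2 ratio did not overlap either, at 6.82, 6.72 and 5.11 in PM2.5 and 4.57, 3.62 and 4.62 in controls. Both ratios contain Bcl2l1, whose own levels did not overlap, so they are not separate results. For the 2 effectors over the 3 guardians the ratio was 0.564, 0.741 and 0.763 in PM2.5 and 1.01, 0.493 and 0.902 in controls, with PM2.5 inside the range of the controls. The effector-like gene Bok is left out of that ratio. Every ratio with Bax in it carries the uncertainty about Ftl1.

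**Figure D3:**
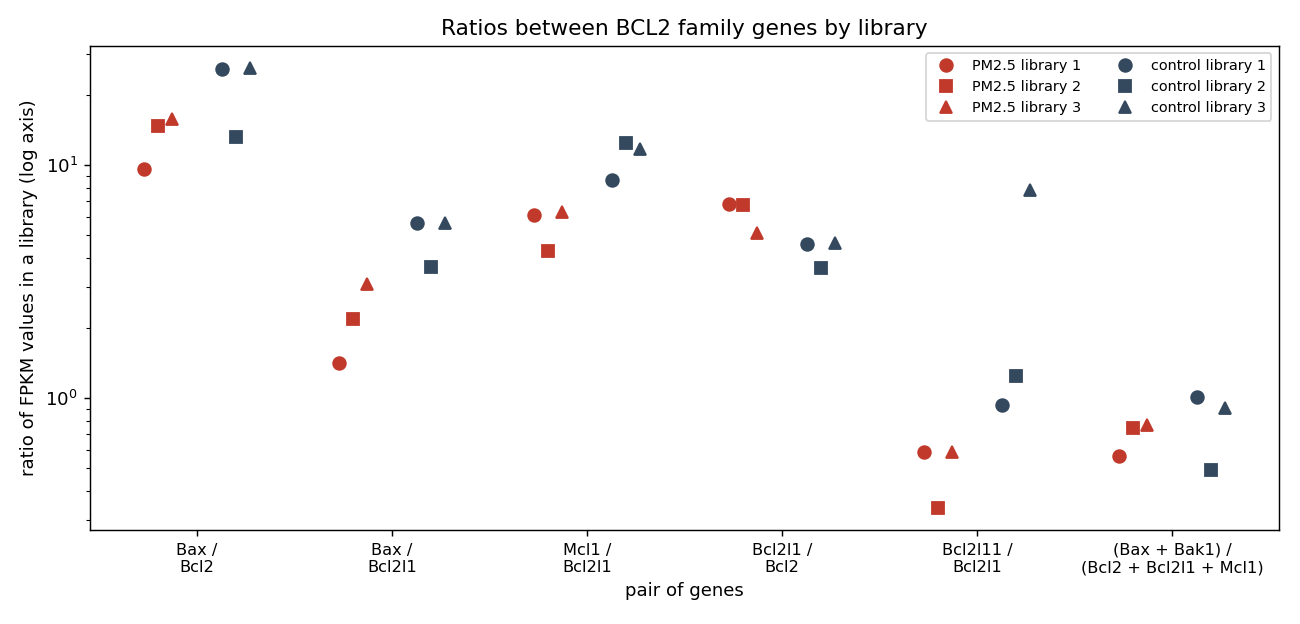
Ratio of FPKM values within each library (log axis) for 6 pairs of family genes or gene sums, PM2.5 left and control right of each pair (3 libraries each). The Bax to Bcl2l1, Mcl1 to Bcl2l1, Bcl2l1 to Bcl2 and Bcl2l11 to Bcl2l1 ratios do not overlap between groups, while control 2 at 13.2 lies among the PM2.5 libraries for Bax to Bcl2. Each ratio without overlap contains Bcl2l1, whose own levels do not overlap, so these ratios are not separate results.

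Summed by role, the guardians had 56.1, 43.4 and 48.4 FPKM in PM2.5 and 46.1, 81.1 and 49.0 FPKM in controls, with overlap. The 2 effectors summed to 31.7, 32.2 and 36.9 FPKM in PM2.5 and 46.4, 40.0 and 44.2 FPKM in controls, with no overlap. That sum contains Bax, whose own levels did not overlap, while those of Bak1 did. It is not a separate result from Bax and carries the uncertainty about Ftl1. For the 5 BH3-only genes the sum was 22.5, 18.4 and 19.4 FPKM in PM2.5 and 28.0, 26.9 and 53.9 FPKM in controls, also with no overlap, and Bcl2l11 alone made up 54.5% of it in control 3. Bad was the largest BH3-only gene in all 3 PM2.5 libraries, with 37.6% to 44.5% of the sum, and in controls 1 and 2, with 37.0% and 30.6%.

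Of 11 further genes of the family, 10 were in the table and 9 tested, and none changed over all genes (edgeR; 1 had an unadjusted p below 0.05, or 11.1%; DESeq2 called 1). Over all tested genes 20.9% had such a p in edgeR and DESeq2 called 11.5%, the shares to set beside this and each later list. Bcl2a1, a guardian of leukocytes, had 2.35, 1.22 and 0.624 CPM in PM2.5 and 4.73, 4.17 and 5.11 CPM in controls, with no overlap and a log2 fold change of -1.74 ± 0.52 (edgeR adjusted p = 0.144; DESeq2 adjusted p = 0.0286). The 7 T and NK cell markers summed to 7.36 to 10.03 CPM in PM2.5 and 23.3 to 51.0 CPM in controls, and Gzmb, the only 1 of the 5 tested that passed, carried that difference. Without Gzmb the other 6 summed to 6.50 to 8.04 CPM in PM2.5 and 7.92 to 11.3 CPM in controls, with overlap. Neutrophil markers summed to 2.90 to 6.33 CPM in PM2.5 and 2.42 to 3.07 CPM in controls, and the part of these cells in the Bcl2a1 value was not tested.

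Bok, an effector-like member studied in the rat ovary, had 120, 231 and 246 CPM in PM2.5 and 118, 176 and 65.9 CPM in controls, with a log2 fold change of 0.73 ± 0.41 (edgeR adjusted p = 0.348). Its lowest library, control 3, had the lowest granulosa sum as well. Bcl2l10, known from oocytes of the mouse, had 43, 94 and 91 counts in PM2.5 libraries and 50, 88 and 0 counts in controls 1 to 3. The 0 was in control 3, the library with the lowest oocyte sum. The part of cell makeup in the Bok and Bcl2l10 values was not tested. Bcl2l12 had 14.4 to 18.5 CPM in PM2.5 and 15.3 to 22.4 CPM in controls (log2 fold change -0.27 ± 0.22).

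Downstream of the mitochondrial pore, cytochrome c and APAF1 assemble the apoptosome, which activates caspase-9 and then the executioner caspases. None of 10 apoptosome and caspase genes changed over all genes (edgeR; 4 had an unadjusted p below 0.05, or 40.0%, 1 higher and 3 lower; DESeq2 called 1). Beside these stand 20.9% of all tested genes in edgeR and 11.5% in DESeq2, and a list of 10 genes is short. Dffa, the inhibitor and chaperone of the caspase-activated nuclease, had a log2 fold change of -1.39 ± 0.37, and Casp8, the initiator that cleaves BID, had -0.64 ± 0.22 (edgeR adjusted p = 0.121 and 0.175). Apaf1 ran the other way, with 21.9, 23.0 and 24.3 CPM in PM2.5 and 15.8, 14.8 and 18.5 CPM in controls, at 0.50 ± 0.18 (edgeR adjusted p = 0.189).

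Of 7 caspase inhibitors of the IAP group and their antagonists none had an unadjusted p below 0.05 in edgeR, and DESeq2 called none. Their log2 fold changes lay between -0.39 for Septin4 and 0.59 for Birc3, with Htra2 at -0.37 and Birc2 at 0.31. Among 12 mitochondrial partners none passed over all genes (edgeR; 2 had an unadjusted p below 0.05; DESeq2 called 1). The largest difference was in Bag1, a co-chaperone named for its binding to BCL2, with 91.5, 118 and 133 CPM in PM2.5 and 215, 203 and 270 CPM in controls. Its groups did not overlap, its log2 fold change was -1.01 ± 0.20, and its adjusted p was 0.0701 in edgeR and 0.000508 in DESeq2. Vdac2, the outer membrane channel that holds BAK, was at 0.23 ± 0.12 with no overlap, and Itpr1 at 0.40 ± 0.16. None of 7 tested death receptor genes passed either (edgeR; 1 had an unadjusted p below 0.05; DESeq2 called none), with Tradd, an adaptor of the TNF receptor, at -0.72 ± 0.24 and Tnfrsf10b at -0.86 ± 0.48.

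Upstream, Bbc3, Pmaip1 and Bax are targets of p53. Of 10 genes of the p53 axis none passed over all genes in edgeR. An unadjusted p below 0.05 was found in 4, all lower, or 40.0%, where 20.9% of all tested genes had one. DESeq2 called 2, where it called 11.5% of all tested genes. Cdkn1a, the p53 target that arrests the cell cycle, had 36.4, 40.8 and 55.1 CPM in PM2.5 and 53.1, 81.3 and 77.0 CPM in controls, at -0.68 ± 0.23 (edgeR adjusted p = 0.171). Mdm2, at -0.41 ± 0.12, and Mdm4, at -0.63 ± 0.16, which restrain p53, did not overlap between groups (edgeR adjusted p = 0.140 and 0.113), and Zmat3 was at -0.52 ± 0.21. Perp, at 1.55 ± 0.84, stood on the other side of 0.

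FOXO factors induce Bcl2l11 and Bbc3, and AKT holds them out of the nucleus. All 10 genes of the FOXO and survival kinase list had positive log2 fold changes, with a median of 0.36, but none passed over all genes (edgeR; 2 had an unadjusted p below 0.05; DESeq2 called 1). Foxo1 had 101, 59.2 and 109 CPM in PM2.5 and 46.2, 43.2 and 25.9 CPM in controls, with no overlap and a log2 fold change of 1.22 ± 0.31 (edgeR adjusted p = 0.112; DESeq2 adjusted p = 0.00535). Akt2 was at 0.78 ± 0.29 and Pik3ca at 0.30 ± 0.15. Foxo1 was lowest in control 3, the library with the highest Bcl2l11 level. The part of FOXO factors in the Bcl2l11 values was not tested, and RNA counts do not measure where the FOXO proteins lie in the cell.

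The stress kinases and the integrated stress response also feed BH3-only genes. Of 7 such regulators none passed over all genes (edgeR; 1 had an unadjusted p below 0.05; DESeq2 called 1). Ddit3, the stress factor CHOP, had 10.7, 11.4 and 14.6 CPM in PM2.5 and 35.8, 23.1 and 24.3 CPM in controls, with no overlap and a log2 fold change of -1.18 ± 0.25 (edgeR adjusted p = 0.0805), while Atf4 upstream of it was at -0.21 ± 0.15 and Mapk8 at -0.25 ± 0.12. Of 10 regulators of the MCL1, BIM and BAD proteins none passed (edgeR; 3 had an unadjusted p below 0.05, or 30.0%, all lower; DESeq2 called 3). The shares over all tested genes were 20.9% in edgeR and 11.5% in DESeq2. Dynll1, the dynein light chain that tethers BIM, had 106, 137 and 135 CPM in PM2.5 and 302, 225 and 321 CPM in controls, at -1.16 ± 0.19 (edgeR adjusted p = 0.0523; DESeq2 adjusted p = 1.62e-05). Fbxw7, part of a ligase that marks MCL1 for destruction, was at -0.71 ± 0.21, Usp9x, which removes such marks, at 0.29 ± 0.13, and Rps6kb1, a kinase of BAD, at -0.56 ± 0.13.

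Across these 9 lists together 82 genes were tested, none changed over all genes in edgeR, and 18 had an unadjusted p below 0.05, where 20.9% of all tested genes had one. Their median log2 fold change was -0.07, and DESeq2 called 10, or 12.2%, 1 higher and 9 lower, beside 11.5% of all tested genes. In the wider annotation of the table, 118 genes of the Apoptosis pathway were tested, and 2 of them, or 1.69%, fell over all genes in edgeR, Fos and Gzmb, beside 0.928% of all tested genes. Gzmb encodes granzyme B, a protease of cytotoxic lymphocytes that can cleave BID. In that annotation DESeq2 called 14 of the 118 genes tested, where it called 11.5% of all tested genes. The 12 tested immediate early genes had a median of -2.35, and 2 of them fell, Fos and Ier3 (edgeR; 11 had an unadjusted p below 0.05; DESeq2 called 8, all lower).

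**Figure D4:**
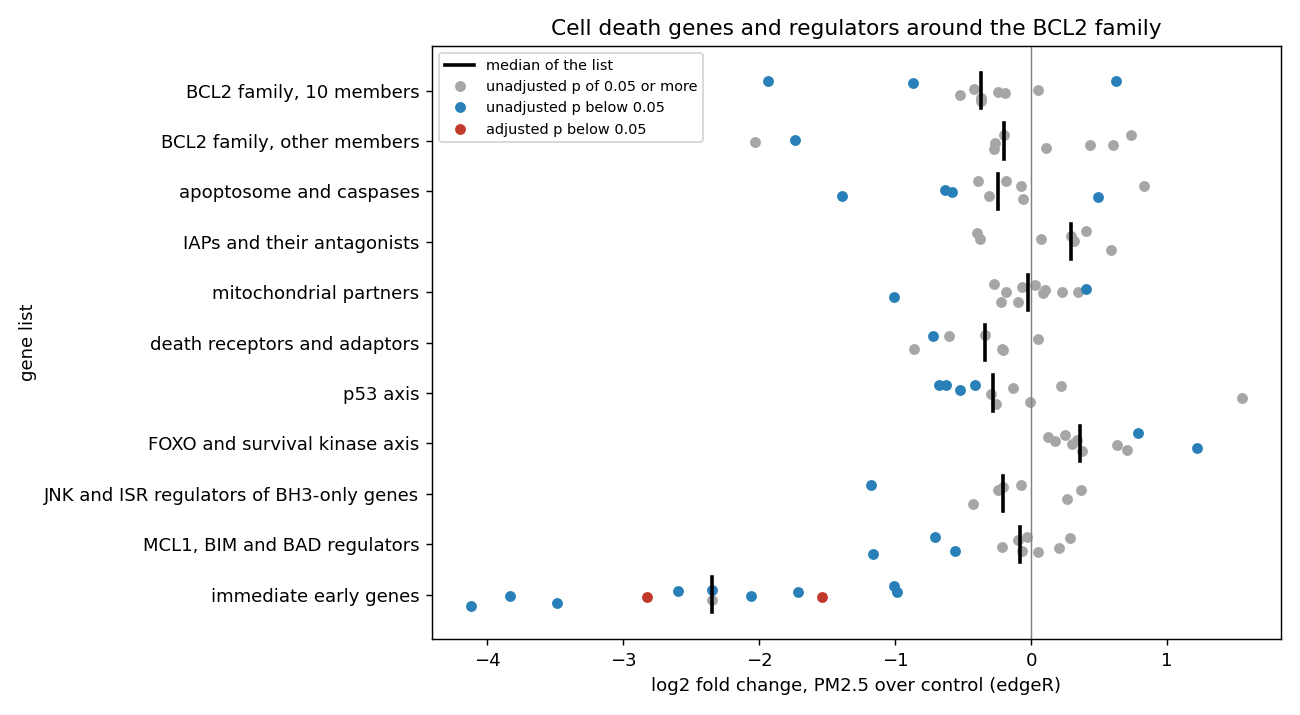
Log2 fold change of PM2.5 over control (edgeR, 3 libraries each) for every tested gene of the family and of the 10 lists around it, with a black bar at each list's median and colours for the test. The family and the 9 cell death lists have no gene at an adjusted p below 0.05, and the immediate early genes, with a median of -2.35, have 2.

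By position, the members lie on 7 chromosomes by the table's own coordinates (the sources used here do not state the build). Bax, Bbc3 and Bad are on chromosome 1 (95938808 to 95945368, 77014543 to 77022509 and 204131501 to 204142823), and Bcl2l1 and Bcl2l11 on chromosome 3 (141253523 to 141303479 and 115366646 to 115404068). Mcl1 is on chromosome 2 from 183219220 to 183222303, Bcl2 on chromosome 13 from 22684989 to 22853743 and Bak1 on chromosome 20 from 5100480 to 5109264. Bid is on chromosome 4 from 154113198 to 154134720 and Pmaip1 on chromosome 18 from 59986017 to 59992429. The table lists 4 transcripts for Bcl2l11, 3 for Bcl2l1, 2 each for Bbc3, Bid and Bad and 1 for the others, and its gene-level counts do not separate isoforms with opposed roles, such as the long and short forms of BCL-X.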

How the data were processed

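RNA of 6 ovary libraries was sequenced from poly(A)-selected, dUTP-marked libraries read from both ends, per the labels' protocols. The authors deposited whole-number counts and FPKM values per gene, per the file headers. The submitters' processing notes list HISAT2 2.2.1 and StringTie 2.1.6 beside cutadapt 1.9, edgeR and DESeq2, without roles. The sources used here do not state the build, annotation release or strand setting. By library, 31.8% to 33.9% of the counts between 1 and 20 were divisible by 4, for no stated reason. The counts were tested with edgeR 4.0.16 in R 4.3.3 (TMM, glmQLFit, glmQLFTest, PM2.5 over control, two-sided, Benjamini-Hochberg over all genes that averaged 0.5 FPKM or more). The SE is the log2 fold change divided by the root of F, and 95% intervals use the fit's degrees of freedom. DESeq2 1.42.0 and limma 3.58.1 were alternatives. The code was tested on simulated data. Members and lists were chosen with earlier results of these data known. All members were named, and up to 4 genes of each list by smallest p; a few others were chosen after their values were seen. Hrk, Junb and Dusp1 were not analysed here, and values of a few list genes are left out.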

Additional observations from a re-analysis of the deposited data

How the results depend on the processing

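The family's count of 0 changed genes held in 15 of 16 alternatives and was 2 with DESeq2. All 160 member values kept their call but 2, those of Bcl2l1 and Bcl2l11 with DESeq2, and 4 changed sign, 2 each for Bcl2 and Pmaip1, none of them called. The count over all genes, 142, was 1767 with DESeq2 (731 higher and 1036 lower, against 29 and 113), 87 with edgeR's own filter, 8 without a filter, 1 with the replicate block, and 0 to 7 with a library left out, where fewer samples entered the test; otherwise the cause was not tested. It stayed between 130 and 180 with other scalings, limma and a mean of at least 1 FPKM. Other cell death genes changed numbered 0, and 10 with DESeq2, 1 with library size alone, 1 with limma at either pseudocount, 1 with a mean of at least 1 FPKM, and 0 with any library left out. Same-numbered libraries' deviations correlated at -0.177, 0.162 and 0.0932, so the numbers were not taken as pairs; with the replicate block no member changed and Bcl2l11 was at -1.45. The log2 difference of Bax to Bcl2 ranged from -0.99 to -0.44 with a library left out, and that of effectors to guardians from -0.48 to 0.04. With 3 libraries in each group, differences the size of those in Bax or Bad could not be told from the spread.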

Other observations

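As a description over 6 libraries, the named gene whose log2 CPM followed each member most closely among 13007 candidates (mean of at least 1 FPKM) was Fggy for Bcl2l1 (Pearson r = 0.999), Naf1 for Mcl1 (0.998), Mfap4 for Bcl2 (0.994), Cdc7 for Bax (0.997), Fadd for Bak1 (0.985), Tspan31 for Bcl2l11 (0.995), Ripk1 for Bbc3 (0.995), Frat1 for Pmaip1 (0.981), Epsti1 for Bid (0.989) and Dhrs4 for Bad (0.999). Between 16 and 140 candidates had an r above 0.95 with a member, so each is 1 of many. Fadd and Ripk1, adaptors of death receptor signalling, had log2 fold changes of -0.34 and -0.21 and did not pass over all genes in edgeR.

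The libraries at the extremes differed by member. Control 3 was the highest library for Bcl2l11, Bak1 and Bad and the lowest for Bcl2 and Bcl2l1. Control 2 was the highest for Bcl2, Mcl1 and Pmaip1, and control 1 for Bax, Bbc3 and Bid. PM2.5 library 2 was the lowest for Mcl1, Bcl2l11, Bak1 and Pmaip1 and the highest for Bcl2l1, the only member with its highest value in a PM2.5 library.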
